A study of Mus musculus with 8 samples.

Results

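The muscle-type actins and their contractile partners were followed here through primary mouse peritoneal mesothelial cells (MCs). The set holds 10 of the 13687 genes with values: the 4 muscle actins Acta1, Acta2, Actg2 and Actc1, the actin-binding proteins Tagln and Cnn1, the myosin subunits Myh11 and Myl9, and the tropomyosins Tpm1 and Tpm2. They were taken by gene name, and all 10 had values in all 8 RNAseq libraries. The set was chosen by a measured value, the level of Acta1, which was higher on stretch in all 4 animals. Changes on stretch are therefore given below as a description, without a test, whereas differences between genotypes and between their stretch responses were tested. All 10 genes passed the filter on low values.

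MCs came from the parietal peritoneum of CAV1-/- mice (Cav-1- in the labels, strain B6.Cg-CAV1tm1mls/J) and of WT littermates. They were released with trypsin, grown to confluence in serum-rich medium and then stretched or left static for 24 h. Each of 2 WT and 2 CAV1-/- mice gave 1 static and 1 stretched culture, so there were 4 groups of 2 cultures: WT static, WT stretch, CAV1-/- static and CAV1-/- stretch. Below, animals 1 and 2 are the replicates of each genotype. The deletion was present in the whole body, and mice of both sexes and of unstated age were used, and p-values measure the spread between 2 animals per genotype.

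Smooth muscle, skeletal muscle and heart each build their thin filaments mainly from their own actin, while most other cells rely mainly on the cytoplasmic actins Actb and Actg1. Mesothelial cells carry little contractile protein in the resting peritoneum, and they gain smooth muscle actin, transgelin and calponin when they turn into myofibroblasts. Most of these genes are read by serum response factor, which binds the CArG box and works with myocardin-related coactivators that are freed when actin polymerizes, and the MCAT element CATTCC is the site of the TEAD factors that work with YAP.

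Promoters (RefSeq, GRCm38.p6, 250 bases before to 50 after the start) were at hand for 7 of the 10 genes, Actg2, Tagln and Myh11 being the others. Both strands were searched for CATTCC and for the CArG box in its strict form CCWWWWWWGG, where W is A or T. Near matches were not counted or marked, such as ccctatatgg and ccttgtttgg in Acta2 and ccctatatgg in Actc1. A CArG box lay in 3 of the 7 (Acta1, Actc1 and Myl9), against 1.63% of all 32851 promoters of this length, and CATTCC in 3 of the 7 (Acta1, Acta2 and Tpm1), against 14.7%. In these exact forms Acta1 alone among the 7 held both, at 73 to 64 bases and at 46 to 41 bases before the start. Cnn1 and Tpm2 held neither in these forms. The 4 promoters below are shown because Acta1 and Actc1 are the striated muscle actins, Acta2 is the abundant actin that moved the other way on stretch, and Myl9 had the most even change. Letters in capitals mark the CArG box (Acta1, Actc1, Myl9) and CATTCC or its complement (Acta1, Acta2).
Acta1 (chr8:123894726-123895025, minus strand): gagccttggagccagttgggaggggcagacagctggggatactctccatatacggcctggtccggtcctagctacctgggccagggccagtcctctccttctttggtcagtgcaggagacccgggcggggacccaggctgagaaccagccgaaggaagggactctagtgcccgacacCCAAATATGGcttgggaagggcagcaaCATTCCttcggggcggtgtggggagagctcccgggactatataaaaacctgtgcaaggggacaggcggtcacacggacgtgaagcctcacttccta
Acta2 (chr19:34255324-34255623, minus strand): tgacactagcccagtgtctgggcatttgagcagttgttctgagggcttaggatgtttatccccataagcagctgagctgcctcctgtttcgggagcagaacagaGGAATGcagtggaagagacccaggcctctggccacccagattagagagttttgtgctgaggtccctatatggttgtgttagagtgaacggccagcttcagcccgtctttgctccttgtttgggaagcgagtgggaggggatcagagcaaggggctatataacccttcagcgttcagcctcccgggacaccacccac
Actc1 (chr2:114052826-114053125, minus strand): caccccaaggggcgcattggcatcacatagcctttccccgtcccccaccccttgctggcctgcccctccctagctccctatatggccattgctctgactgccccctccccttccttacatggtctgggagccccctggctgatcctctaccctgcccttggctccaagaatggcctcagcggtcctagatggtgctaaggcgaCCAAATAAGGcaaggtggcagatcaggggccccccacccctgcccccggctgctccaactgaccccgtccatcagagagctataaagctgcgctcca
Myl9 (chr2:156775214-156775513, plus strand): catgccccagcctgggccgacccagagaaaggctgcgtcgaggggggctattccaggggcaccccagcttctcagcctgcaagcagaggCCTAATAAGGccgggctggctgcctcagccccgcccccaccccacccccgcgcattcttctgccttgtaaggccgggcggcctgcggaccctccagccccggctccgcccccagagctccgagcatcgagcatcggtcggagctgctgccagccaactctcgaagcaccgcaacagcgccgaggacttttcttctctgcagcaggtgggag
The CArG box of Actc1 lay at 47 to 38 and that of Myl9 at 161 to 152 bases before the start. In Acta2 the letters of CATTCC were on the other strand, at 146 to 141, and in Tpm1 likewise, at 56 to 51 bases. These are matches of letters and say nothing of binding in MCs.

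Levels are given as TMM-normalized CPM, the deposited unit, in which reads are scaled to a library total adjusted by the TMM method. The reads behind each value could be recovered, and library totals ranged from 9777738 to 21203938 reads, with all 4 stretched libraries deeper than every static one, so depth and stretch cannot be told apart. A gene at 3 reads, taken as the floor, had 0.146 to 0.308 TMM-normalized CPM, a limit that covers counting error only. Cav1 was at 247 to 764 in WT and at 12.8 to 34.5 in CAV1-/- cultures, without overlap. The 13 mesothelial markers had reads in every culture, though Muc16 was under the floor in the static culture of CAV1-/- animal 1 (0.165). Their sum was 3119 to 4120 in WT and 925 to 1177 in CAV1-/- cultures. The 13 leukocyte markers with values summed to 5264 and 5272 in the static and stretched cultures of CAV1-/- animal 1, to 339 and 377 in those of CAV1-/- animal 2 and to 86.4 to 516 in WT cultures. In bulk RNA, fewer cells of a type and less RNA per cell cannot be told apart.

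Among the muscle actins, Acta1 (chr8:123891769-123894751, minus strand, 7 exons), the actin of skeletal muscle thin filaments, spread most. Static cultures of WT animals 1 and 2 had 190.2 and 27.9 TMM-normalized CPM, and their stretched cultures had 424 and 47.9. For CAV1-/- animals 1 and 2 the levels were 685 and 6.37 when static and 1231 and 15.9 when stretched. Every stretched culture was above the static culture of the same animal, yet the groups overlapped widely, because animal 1 exceeded animal 2 in both genotypes. The stretched level was 2.23-fold and 1.72-fold the static level in WT animals 1 and 2, and 1.80-fold and 2.50-fold in CAV1-/- animals 1 and 2. The mean log2 change was 0.99 (SD 0.22, n = 4 animals), which placed Acta1 at rank 42 of the 13665 genes tested. A gene higher on stretch in all 4 animals was common (1979 genes, 14.5%), and 12 other genes had a smallest change at least as large as the 0.76 of Acta1. They were Stk38l, Il11, Aldh1a3, Havcr2, Megf10, Kif5c, Postn, Tfpi2, Enpp1, Apol9a, Tnfrsf11b and Apol9b. Postn encodes periostin, a matrix protein of fibrotic tissue, and Il11 a cytokine of fibrosis.

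**Figure D1:**
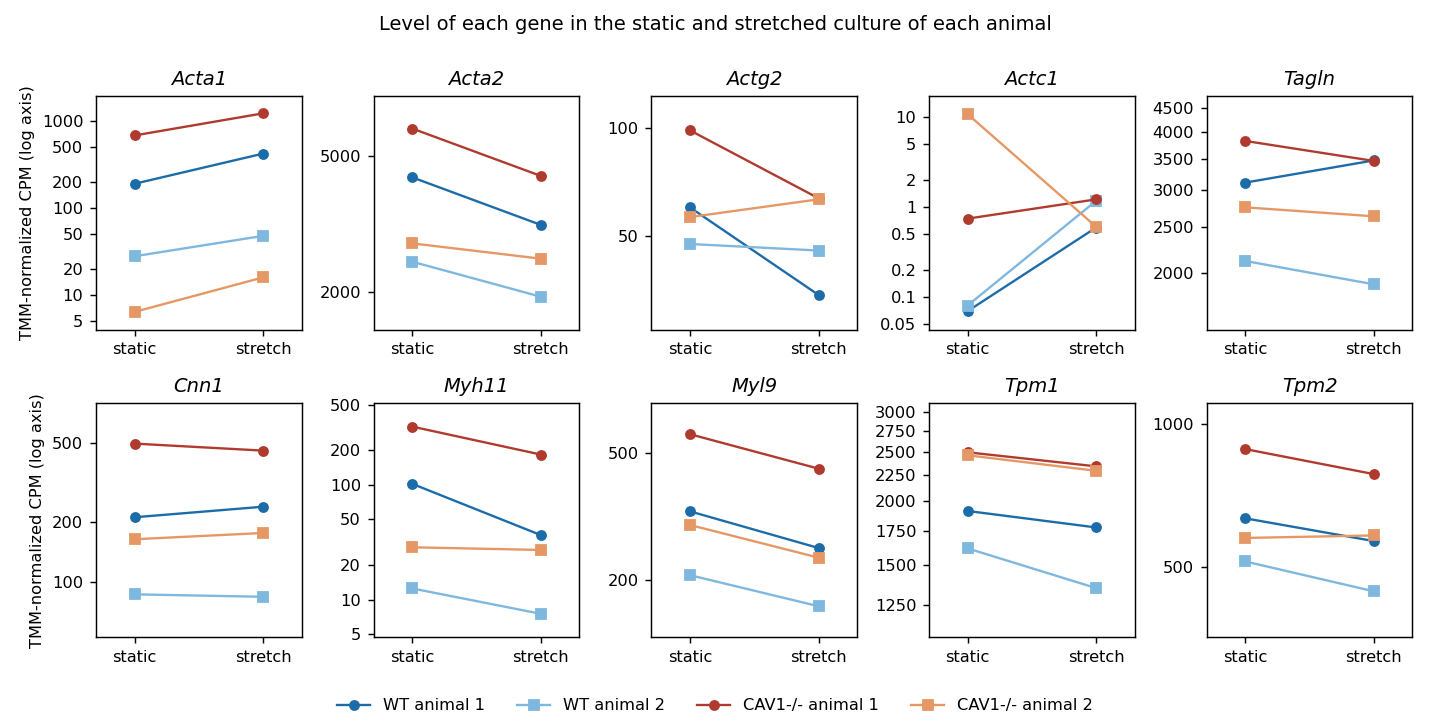
Level of each of the 10 genes (TMM-normalized CPM, log axis, a separate scale per panel) in the static and the stretched culture of each animal, joined by a line per animal. Acta1 was the 1 gene with 4 ascending lines, while Acta2, Myh11, Myl9 and Tpm1 had 4 descending lines.

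Acta2 (chr19:34241090-34255590, minus strand, 9 exons), the smooth muscle α-actin by which myofibroblasts are recognized, went the other way. Its level was 4342 and 2450.3 TMM-normalized CPM in static and 3144 and 1932 in stretched WT cultures, and 6045 and 2774 in static and 4382 and 2501 in stretched CAV1-/- cultures. Stretch was lower than static in each animal, by 27.6% and 21.1% in WT and by 27.5% and 9.86% in CAV1-/- animals 1 and 2. Actg2, the smooth muscle γ-actin of gut and bladder, was at 60.1 and 47.5 in static and 34.2 and 45.5 in stretched WT cultures, and at 98.6 and 56.4 and then 63.7 and 63.3 in CAV1-/- cultures. It was lower on stretch in 3 of the 4 animals and 12.1% higher in CAV1-/- animal 2.

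Actc1, the cardiac α-actin, was close to the limit of detection. It had 1 read in each static WT culture, 12 and 19 reads in the stretched ones (0.592 and 1.17 TMM-normalized CPM), 9 and 104 reads in static CAV1-/- cultures (0.742 and 10.7) and 25 and 11 reads in stretched ones (1.21 and 0.602). The highest value was that of a single library, the static culture of CAV1-/- animal 2. Of the 11 striated muscle markers with values, 2 also had their highest value in that library. They were Ttn, the giant sarcomere spring (5.04, against 0.493 to 2.23 in the others), and Tnnc1 (3.39). The rest had theirs in other libraries. The 11 of 23 striated muscle markers with values were otherwise low: apart from Des at 69.4 to 383, Tnnt2 at 3.05 to 36.0 and Neb at 4.51 to 16.7, no marker exceeded 5.04 in any library. The part of other cells in the levels of Acta1 and Actc1 was not tested.

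Divided by the length of the longest transcript, the 4 muscle actins could be compared with each other. Acta2 made up 70.5% to 96.2% of their summed level. The share of Acta1 was 5.69% in the static and 15.7% in the stretched culture of WT animal 1, 1.53% and 3.25% in WT animal 2, 13.5% and 27.9% in CAV1-/- animal 1, and 0.311% and 0.855% in CAV1-/- animal 2. In each animal Acta1 took a larger share after stretch. Reads of 61 bases separate these genes well, since all such windows of the Acta2, Actg2 and Actc1 transcripts, and 98.6% of those of Acta1, occurred in no transcript of another gene.

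**Figure D2:**
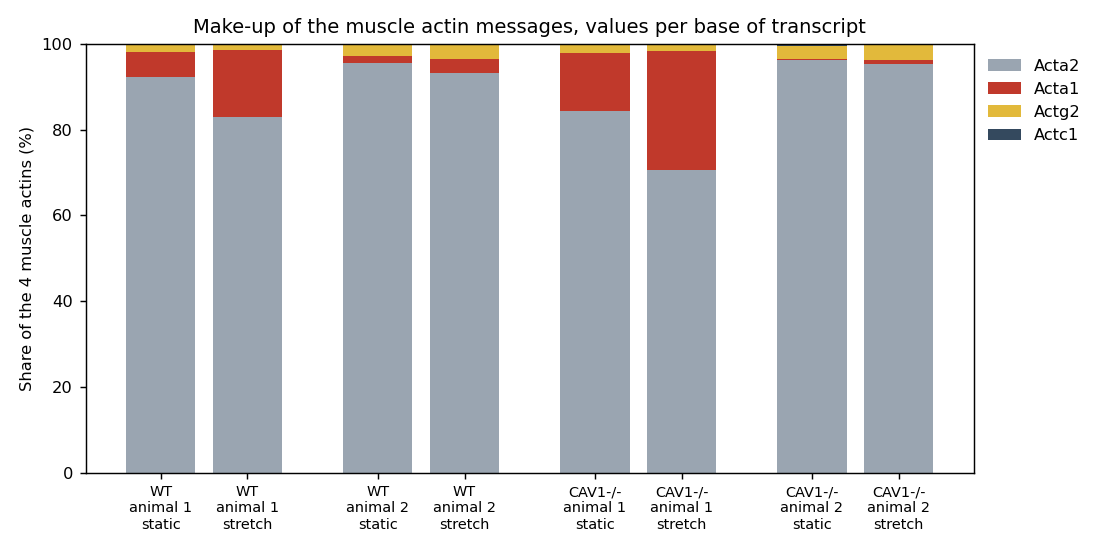
Share of each muscle actin (%) in the summed level of the 4 muscle actins, per base of transcript, as stacked bars for the static and stretched culture of each animal. Acta2 was the main part of every bar, from 70.5% to 96.2%, and the Acta1 part was larger on stretch within each animal, from 0.311% to 0.855% in CAV1-/- animal 2 and from 13.5% to 27.9% in CAV1-/- animal 1.

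Of the actin-binding partners, Tagln encodes transgelin, which bundles actin filaments, and Cnn1 calponin, which restrains the myosin motor in smooth muscle. Tagln was at 3117 and 2119 TMM-normalized CPM in static and 3477 and 1889 in stretched WT cultures, and at 3827 and 2759.8 in static and 3468 and 2640.5 in stretched CAV1-/- cultures. It was lower on stretch in 3 animals and 11.5% higher in WT animal 1. Cnn1 was at 211 and 86.3 in static and 239 and 83.9 in stretched WT cultures, and at 498 and 164 and then 459 and 176 in CAV1-/- cultures, with 2 animals on either side. Their mean log2 changes were −0.05 (SD 0.15) and 0.03 (SD 0.13, n = 4 animals), so these partners of Acta2 moved less than their spread. Tagln (chr9:45929619-45936058) is annotated on the same stretch as Pcsk7 and Gm48529, and 54.9% of its read-length windows were its own, so its level is uncertain.

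The myosin subunits were lower on stretch in each animal. Myh11, the heavy chain of differentiated smooth muscle, was at 102 and 12.5 TMM-normalized CPM in static and 36.5 and 7.52 in stretched WT cultures, and at 322 and 28.6 in static and 184 and 27.1 in stretched CAV1-/- cultures. It was lower on stretch by 64.3% and 39.9% in WT and by 43.0% and 5.21% in CAV1-/- animals. Myl9, the regulatory light chain whose phosphorylation starts contraction, was at 329 and 208 in static and 252 and 166 in stretched WT cultures, and at 573 and 298 and then 447 and 235 in CAV1-/- cultures. Its change was the most even of the set, 20.1% to 23.2% lower in the 4 animals (mean log2 change −0.35, SD 0.025).

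The tropomyosins, coiled coils that lie along the filament and gate myosin, were lower by less. Tpm1 was at 1915 and 1616 TMM-normalized CPM in static and 1777 and 1349 in stretched WT cultures, and at 2500.0 and 2466 in static and 2345 and 2298 in stretched CAV1-/- cultures, 6.19% to 16.5% lower on stretch. Tpm2 was at 633 and 514 in static and 567 and 444 in stretched WT cultures, and at 887 and 576 and then 785 and 583 in CAV1-/- cultures, lower in 3 of 4 animals. In all, 1 of the 10 genes was higher on stretch in all 4 animals, beside 14.5% of all genes tested, and 4 of the 10 (Acta2, Myh11, Myl9 and Tpm1) were lower in all 4, beside 16.9%. The median log2 change of the 10 was −0.18 in WT and −0.17 in CAV1-/- MCs, where that of all genes was −0.017 and close to 0. For these stretch comparisons limma called 0% of all genes tested in either genotype, and 0.00732% in CAV1-/- MCs with the animal as a block.

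**Figure D3:**
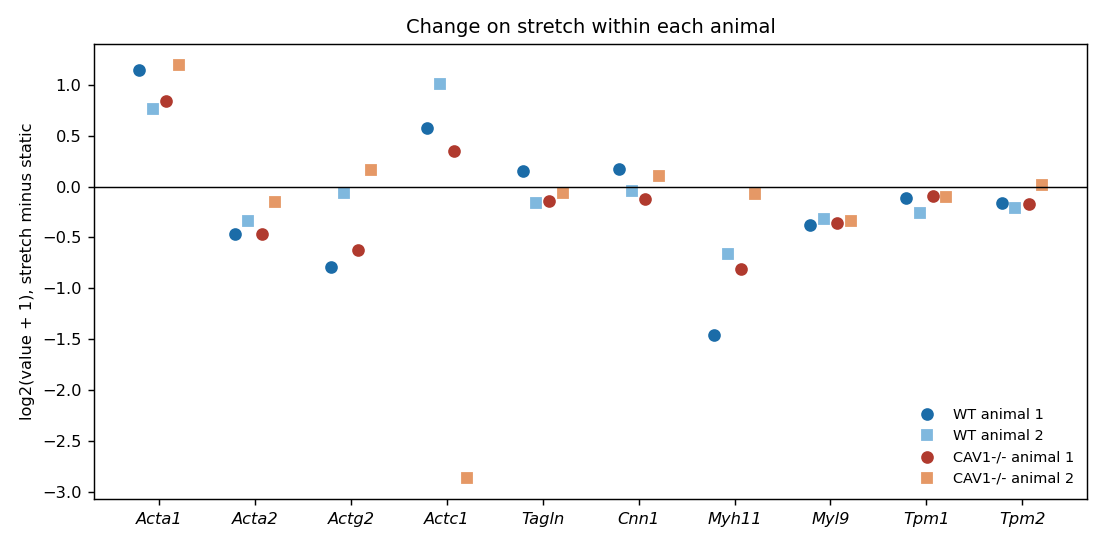
Difference in log2(value + 1) between the stretched and the static culture of each animal for the 10 genes, 1 point per animal. Acta1 lay at 0.76 or higher in all 4 animals, Myl9 in a narrow band around −0.35, and Actc1 spread from −2.87 to 1.01 on few reads.

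For most of these genes the 2 animals of a genotype stood in the same order in every group, though not always far apart. Animal 1 was above animal 2 of its genotype, static and stretched, for 8 of the 10 genes (80%, all but Actg2 and Actc1), whereas this held for 2964 of the 13665 genes tested (21.7%). For Acta1 the ratio of animal 1 to animal 2 was 6.83 and 8.85 in static and stretched WT MCs, and 107 and 77.3 in CAV1-/- MCs, where it ranked 2nd and 4th of all genes by size on the log2(value + 1) scale. For Myh11 the ratios were 8.17, 4.86, 11.3 and 6.79 in the same order, for Cnn1 2.45, 2.85, 3.04 and 2.60, and for Tpm1 1.19, 1.32, 1.01 and 1.02. The last 2 were small, since 96.1% and 93.9% of all genes differed by at least as much between CAV1-/- animals. Leukocyte markers were likewise higher in animal 1 of both genotypes (489 and 516 against 86.4 and 89.7 in WT). Fibroblast markers were lower there, at 11262 and 9036 against 17762 and 13119 in WT and at 8701 and 8398 against 20190 and 17857 in CAV1-/- MCs. The 9 smooth muscle and pericyte markers with values summed to 635 to 786 in the cultures of animal 1 and to 472 to 514 in those of animal 2. Des, also a striated muscle marker, had 311 to 383 in animal 1 and 69.4 to 186 in animal 2. In WT the gap between the animals in this sum was smaller than the gap in Des alone. The list did not move as a whole. Notch3 and Itga8 were lower in animal 1 of both genotypes, and Cspg4 and Ckb were lower there in WT. Smtn was lower in animal 1 in all but static WT cultures, Lmod1 in stretched WT cultures and Kcnj8 in CAV1-/- cultures. The part of these cells in the differences between animals was not tested.

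Across the 8 libraries, which share animals and groups, 6 of the 10 genes followed each other closely on the log2(value + 1) scale: among Acta2, Tagln, Cnn1, Myh11, Myl9 and Tpm2, picked out after the values were seen, Pearson's r was 0.86 to 0.98. The others were less close to the rest of the set. Acta1 had r between −0.43 (Actc1) and 0.75 (Cnn1), Actg2 between 0.04 (Actc1) and 0.77 (Tpm2), Tpm1 between 0.13 (Acta1) and 0.78 (Tpm2), and Actc1 reached 0.40 (Tpm1). The genes outside the set most like Acta1 were Atp6ap1, Tfpi, Asb6, Prkx and Nrp2 (r from 0.990 to 0.996 over 8 libraries), and those most like Acta2 were Fam129a, 4833412C05Rik, Aif1l, Edem2 and Klhl5 (r from 0.980 to 0.990). Atp6ap1 followed the order of Acta1 over a far smaller range, from 146 to 333 TMM-normalized CPM.

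Per kilobase of the longest transcript, Tagln and Acta2 were the most abundant, with means over the 8 libraries of 1826 and 1694 TMM-normalized CPM per kb. Tpm1 followed at 704, Tpm2 at 287, Myl9 at 278, Acta1 at 227, Cnn1 at 101, Actg2 at 44.0, Myh11 at 13.8 and Actc1 at 1.29. Neighbors in this order overlapped across libraries in several cases: Tagln (1184 to 2399) with Acta2 (949 to 2970), Tpm2 (204 to 408) with Myl9 (147 to 508), and Acta1 (4.41 to 851) with each of the others but Tagln and Acta2. The highest library exceeded the lowest 193-fold for Acta1, 153-fold for Actc1 (on 1 to 104 reads) and 42.9-fold for Myh11, but 1.85-fold for Tpm1.

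Whether loss of CAV1 changed these genes was asked in static and in stretched MCs. No gene of the set passed the adjusted threshold of 0.05 from limma in either comparison (0 of 10, beside 0.0732% of all genes tested without and 0.0585% with stretch). At an unadjusted p under 0.05 there were 2 of the 10 in static (Actc1 and Tpm1), beside 8.17% of all genes tested, and 1 in stretched MCs (Tpm1), beside 6.26%. From the reads, the quasi-likelihood test of edgeR called 0 in either, beside 0.0146% and 0.0439% of all genes in static and stretched MCs. DESeq2 called 1 of the 10 in static (Actc1), beside 2.26%, and 0 in stretched MCs, beside 1.78% of the genes that it gave an adjusted p. On the log2(value + 1) scale the CAV1-/- mean in static culture was above the WT mean for 9 of the 10, beside 47.8% of all genes. The exception was Acta1, whose mean level was 346 TMM-normalized CPM in CAV1-/- and 109 in WT. The median log2 fold change was 0.49, where that of all genes was −0.013. The median was 0.47 without Actc1. In stretched culture the CAV1-/- mean on this scale was above for all 10, with a median of 0.51, where that of all genes was 0. Both comparisons rest on the same animals, and several of the 10 genes followed each other closely across the libraries. The counts are therefore not counts of separate results. Without both cultures of CAV1-/- animal 1, the animal with the high leukocyte markers, the medians were 0.09 and 0.21, with 7 and 8 of the 10 above 0. Leaving out WT animal 1 moved them the other way. The static median was 0.86 without its static culture (10 of 10 above 0). The stretched median was 0.78 without its stretched culture (9 of 10 above 0).

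Tpm1 was the gene whose genotypes stood apart in both conditions. Each CAV1-/- culture (2298 to 2500.0) was above each WT culture (1349 to 1915), with a log2 fold change of 0.50 in static (standard error 0.20, adjusted p = 0.606 from limma) and 0.58 in stretched MCs (standard error 0.20, adjusted p = 0.664 from limma). Both had an unadjusted p-value under 0.05 (0.0490 and 0.0274). Actc1 did not overlap in static culture either, and Actg2 and Tpm2 did not in stretched culture. That makes 2 of 10 genes higher without overlap in static culture, beside 16.1% of all genes tested, and 3 of 10 in stretched culture, beside 14.6%. No gene of the set was lower without overlap, beside 20.8% and 15.9%.

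The remaining genes had larger errors. Cnn1 had log2 fold changes of 1.07 and 1.00 in static and stretched MCs (standard error 0.83, adjusted p = 0.842 and 0.970 from limma). In a fit blocked on the replicate number, which pairs different animals, Cnn1 alone of the 10 passed the threshold from limma, in static and in stretched MCs, beside 1.80% and 0.805% of all genes tested. Myh11 had 1.39 and 2.01 (standard error 1.63, adjusted p = 0.908 and 0.966 from limma), and without CAV1-/- animal 1 its static value turned to −0.34. Acta2 had 0.33 and 0.43 (standard error 0.53, adjusted p = 0.935 and 0.991 from limma), and −0.23 in static culture without that animal. Myl9 had 0.66 in both conditions (standard error 0.46), Tagln 0.34 and 0.24, Actg2 0.47 and 0.67, and Tpm2 0.32 and 0.43. For Acta1 the log2 fold change was −0.06 and 0.0037 with a standard error of 2.83, so a genotype difference was not detectable against the spread between animals. It was −3.33 and −3.09 without CAV1-/- animal 1, which by itself held the highest Acta1 level. Actc1 had 113 reads in static CAV1-/- against 2 in static WT cultures, a ratio of 69.0 with an exact 95% interval of 18.7 to 576 for counting error alone, and most of the reads came from 1 library. Its adjusted p was 0.599 from limma.

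**Figure D4:**
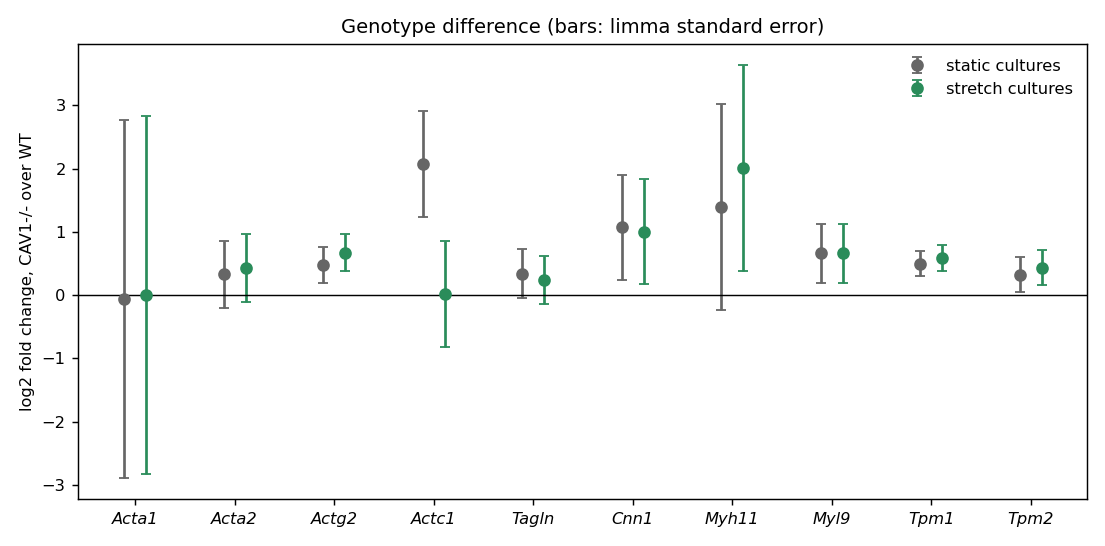
Log2 fold change of the 10 genes in CAV1-/- over WT MCs, on the log2(value + 1) scale, in static and stretched cultures, with bars of 1 standard error from limma. Apart from Acta1 in static culture (−0.06) all points lay above 0, and the bars of Acta1 (2.83) and Myh11 (1.63) were the widest.

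No difference between the stretch responses of the genotypes was detectable against the spread between animals. The genotype by stretch interaction called 0 of the 10 genes, beside 0% of all genes tested from limma (66 genes, 0.483%, at an unadjusted p under 0.05, and 0 genes by edgeR and by DESeq2). No gene of the set was among those 66. The interaction had a median of 0.08 over the 10 genes and 0.01 over all genes on the log2 scale. Its value for Acta1 was 0.07 (standard error 4.01), and 0.18 was the standard error with the animal as a block, where the adjusted p-values of the 10 genes were 0.947 to 0.999 from limma.

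A share of a protein family compares genes within 1 library. Per base, the muscle-type Myl9 made up 38.3% and 32.0% of the regulatory light chains (with Myl12a and Myl12b) in static WT cultures, 34.2% and 28.8% in stretched ones, 49.8% and 42.4% in static CAV1-/- cultures and 45.7% and 38.1% in stretched ones. The CAV1-/- cultures were above the WT cultures of the same condition without overlap, and stretch was below static in each animal. Tpm1 and Tpm2 made up 53.7% and 53.8% of the tropomyosins in static and 50.4% and 48.0% in stretched WT cultures, and 55.2% and 59.6% and then 55.4% and 57.3% in CAV1-/- cultures, again without overlap between genotypes. With 2 cultures against 2 an exact permutation test cannot give a two-sided p below 0.333. The muscle actins made up 33.5% and 22.4% of all 6 actins in static and 29.8% and 19.2% in stretched WT cultures, and 37.8% and 21.7% and then 36.6% and 21.1% in CAV1-/- cultures, so here the genotypes overlapped. Myh11 was 0.238% to 8.52% of the class II heavy chains, far below the non-muscle Myh9. It was also below the non-muscle Myh10, except in the static culture of CAV1-/- animal 1 (49.2 against 43.1 TMM-normalized CPM per kb). In the stretched culture of that animal the 2 were close (28.1 against 35.7). Of the windows of Myl12a and Myl12b 71.4% and 67.4% were their own, and of Actg1 44.0%, so these shares depend on how reads were divided among copies.

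Of the 13 non-muscle counterparts, 12 had values and 0 passed the threshold from limma without a block in any of the 5 comparisons. Their median log2 fold change between genotypes was 0.23 in static and 0.15 in stretched MCs, with 10 of 12 above 0 in both. Myh10, a non-muscle myosin heavy chain, had the largest, −1.25 in static and −0.79 in stretched MCs (standard error 0.52, adjusted p = 0.620 and 0.958 from limma). Blocked on the replicate number, it passed in static MCs (adjusted p = 0.0364 from limma). Myh9, another non-muscle heavy chain, had 0.19 and 0.60. At an unadjusted p under 0.05 there were 2 of the 12 in static MCs, beside 8.17% of all genes tested. There were 0 in stretched MCs, beside 6.26%, and 0 in the other comparisons. Both edgeR and DESeq2 called 0. Among 27 of 28 genes of the serum response factor pathway, 0 passed in any comparison from limma without a block, 16 were above 0 between genotypes in static and 20 in stretched MCs, and the medians were 0.04 and 0.20. Mylk, the kinase that phosphorylates Myl9, was at 115 and 298 in static and 14.8 and 199.7 in stretched WT cultures, and at 10.7 and 53.0 and then 3.88 and 28.6 in CAV1-/- cultures. It was lower on stretch in each of the 4 animals, as Myl9 was, and its log2 fold change between genotypes was −2.89 and −2.23 (standard error 1.49, adjusted p = 0.723 and 0.958 from limma). Itga5, the α chain of the fibronectin receptor, had 1.06 and 1.03 (standard error 0.30, adjusted p = 0.376 and 0.516 from limma) and passed in static MCs with that block (adjusted p = 0.0482 from limma). Ankrd1, a YAP target that also responds to load in muscle, had 1.06 and 0.95 (standard error 0.99, adjusted p = 0.872 and 0.987 from limma). Its level was 276 and 238 in CAV1-/- animal 1, but 58.8 and 63.5 in CAV1-/- animal 2, within the 38.9 to 103 of WT cultures. In static MCs 5 of the 27 had an unadjusted p under 0.05, beside 8.17% of all genes, and 2 in stretched MCs, beside 6.26%. Of the same genes edgeR called 0 in either and DESeq2 2 in static MCs, beside 2.26%. Srf itself was at 102 to 142 in all 8 libraries. On stretch the pathway's median was −0.17 in WT (8 of 27 above 0) and 0.01 in CAV1-/- MCs (14 of 27). Of the 8 genes that TGF-β induces in myofibroblasts, 0 passed from limma, edgeR or DESeq2. Only 1 had an unadjusted p under 0.05, in stretched MCs between genotypes, beside 6.26% of all genes. Tgfb2 had the largest genotype value, 0.22 in static and 1.02 in stretched MCs (standard error 0.31, adjusted p = 0.927 and 0.551 from limma). On stretch the median of these 8 genes, Postn among them, was −0.35 in WT (3 of 8 above 0) and 0.15 in CAV1-/- MCs (5 of 8).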

How the data were processed

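RNAseq of poly(A) RNA was done as single reads of 61 bases. Per the labels and the methods, the authors trimmed reads with cutadapt, estimated reads per gene on GRCm38 with RSEM and normalized them by TMM. The deposited values are this signal (TMM-normalized CPM, with low genes left out). They were whole multiples of 1 constant per library (100% within 0.001 of a whole number), which gave the reads. Totals were 9777738 to 21203938 reads, and intervals cover counting error only. The paper states another number of replicates per condition than the 2 cultures per group analysed here.

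A pseudocount of 1 was added before log2, which understates the change of low genes. Genes reaching 1 in 2 or more libraries (13665) entered a fit by limma 3.58.1 (R 4.3.3) with 1 mean per group, eBayes with intensity trend, 4 residual degrees of freedom, no block, and Benjamini-Hochberg adjustment over all genes at 0.05. All 5 comparisons used this fit. Static and stretched cultures came from the same animal per the labels, and deviated together from their group means (r = 0.703 in WT and 0.850 in CAV1-/- MCs).

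The members and the lists were chosen with earlier results of these data known. All 10 members are named. Of the other lists, genes past the threshold are named, or else up to 4 with the largest genotype difference (some others were named after their values were seen: Srf, and the markers). Genes like Acta1 and Acta2 are the 5 with the highest r. Gene positions and transcript lengths are from GENCODE M21 (GRCm38), in which 13604 of the 13687 identifiers were found. Alternatives were pseudocounts of 0.1 and 5, no filter, a mean of at least 5, median-of-ratios and quantile normalization, a replicate block, edgeR's quasi-likelihood test (4.0.16) and DESeq2 (1.42.0) on the reads, each culture left out, and other length corrections. Leaving out both cultures of CAV1-/- animal 1 was tried as well. The limma fit without a block was run on simulated libraries drawn independently, with no animal effect. That run cannot show how the fit behaves where cultures share an animal.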

Additional observations from a re-analysis of the deposited data

How the results depend on the processing

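No member was called without the replicate block by limma or edgeR in any comparison, nor with any 1 culture left out (0 to 0). The replicate number as a block pairs different animals between genotypes. Same-numbered cultures of different genotype deviated together from their group means (r = 0.522 in static and 0.484 in stretched MCs). The labels do not say what they share beyond the number, and this was not tested. With this block Cnn1 was called in static (adjusted p = 0.0222 from limma) and stretched MCs (adjusted p = 0.0348 from limma), 1 member each. In the same fit 246 and 110 of all genes were called between genotypes, in place of 10 and 8, and 1 gene for stretch in CAV1-/- MCs with the animal as the block. The block changed no other call on the members. Of the non-muscle, serum response factor and TGF-β lists it called Myh10 and Itga5, in static MCs. DESeq2 called 1 member in static MCs (Actc1, adjusted p = 0.00640) and 309 and 238 genes between genotypes, and 3 and 7 for stretch in WT and CAV1-/- MCs. The edgeR test called 2 genes in static and 6 in stretched MCs. Without both cultures of CAV1-/- animal 1, 0 genes were called in either genotype comparison.

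Leaving out single cultures gave 0 to 8 genes in static and 0 to 7 in stretched MCs between genotypes, and 0 to 0 in the other comparisons. In static MCs each CAV1-/- culture and each static WT culture moved this count, and in stretched MCs each WT culture and each stretched CAV1-/- culture. The genotype value of Acta1 was 1.70 by DESeq2, 1.66 by edgeR and 0.15 with a pseudocount of 5 in static MCs, and −0.021 with a pseudocount of 0.1, −0.058 with quantile normalization and −3.09 without CAV1-/- animal 1 in stretched MCs. Its interaction was −0.29, −0.26 and −0.050 by DESeq2, by edgeR and with a pseudocount of 5. Without CAV1-/- animal 1 the static values of Acta2 (−0.23) and Myh11 (−0.34), the stretched value of Actc1 (−0.21) and the interaction of Cnn1 (0.037) changed sign. With quantile normalization the stretched value of Actc1 (−0.038) and the interaction of Acta2 (−0.10) did, and the interaction of Myl9 did by DESeq2 (−0.017) and with median-of-ratios rescaling (−0.016). The causes were not tested.

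With 1 culture left out, the static genotype values ranged from −3.33 to 3.21 for Acta1, −0.23 to 0.89 for Acta2 and −0.34 to 3.11 for Myh11. The stretched ones ranged from −3.09 to 3.10 for Acta1, −0.21 to 0.25 for Actc1 and −0.20 to 0.68 for Tagln. The interaction ranged from −3.20 to 3.34 for Acta1, −0.46 to 0.66 for Acta2, −0.20 to 0.59 for Actg2, −0.54 to 0.34 for Tagln, −0.87 to 0.72 for Cnn1, −1.10 to 2.35 for Myh11, −0.47 to 0.47 for Myl9, −0.11 to 0.29 for Tpm1 and −0.21 to 0.42 for Tpm2. In these fits the lone culture of a group was assumed to vary like the others, and a stretch comparison then set different animals against each other.

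The mean share of Tpm1 and Tpm2 among tropomyosins was 59.1% without division by length and 43.8% with the union of annotated exons, and that of Myl9 among light chains 26.8% and 50.5%. Leaving out single cultures moved no family's mean share by more than its spread. Actc1 could not be tested with a mean of at least 5. Depth limited Actc1, which had 1 to 104 reads.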

Other observations

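Within their families, Cnn1 and Tagln differed in how steady their shares were. Per base of transcript, Cnn1 made up 20.8% and 9.37% of the calponins (with Cnn2 and Cnn3) in the static cultures of WT animals 1 and 2 and 21.8% and 8.85% in the stretched ones, and 30.4% and 13.7% and then 30.1% and 14.9% in CAV1-/- cultures. This share thus followed the animal, and stretched and static cultures of an animal lay close together. Tagln made up 73.9% to 78.6% of its family (with Tagln2) in all 8 libraries.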
